A study of Mus musculus with 2 samples.

Results

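The genes described here are 9 transcription factors and cofactors of mast cells and of the early blood lineages, Gata2, Gata1, Mitf, Tal1, Lyl1, Runx1, Meis1, Satb1 and Zfpm1, taken by symbol from the 32285 genes of the deposited count matrix, and each symbol matched 1 row. The study, which concerned progenitors with macrophage and endothelial potential in the postnatal aorta, cultured cells of mouse aorta in methylcellulose, a semi-solid medium, and harvested the macrophage colonies. Per the labels, aortas from 2 mice (C57BL/6J males, 12 weeks old) were pooled, the culture lasted 14 days, and viable cells were sorted with the dye DAPI before droplet sequencing of RNA 3′ ends. The labels give this strain, age and culture for all cells and no treated or control group. The medium's growth factors are not given in the sources used here. Whether the tagged suspensions described below were cultured alike is not given either. The comparisons are between classes and states of cells within 1 library, so they have no replicate check and no p-value, and every interval covers counting error only.

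The library held 593248944 gene UMIs (unique molecular identifiers, 1 for each captured RNA molecule) in 34813 barcodes, of which 29178 cells passed the filters, with a median of 12457 UMIs. Clusters were named from marker genes, as no cell annotation was among the files. Mast cell-like (mast-like) clusters held 21337 cells, 73.1% of the library, a macrophage-like cluster held 2470, fibroblast-like clusters held 5146, and 225 cells stayed unnamed. The 7 mast cell markers summed to 60742 CPM (UMIs per 1000000 gene UMIs) in the mast-like class, with all 7 at 50 CPM or more. They also summed to 17522 CPM among macrophage-like and 7965 CPM among fibroblast-like cells, which is the background of mast cell RNA that the levels below are set against. It was uneven between cells of a class. The median cell drew 0.355% of its UMIs from these markers in the macrophage-like and 0.174% in the fibroblast-like class. Of 152034 Cma1 UMIs among macrophage-like cells, 130621 lay in the 618 cells with the highest share of UMIs from mast cell proteases. The macrophage markers summed to 46.0 CPM among mast-like and 10135 CPM among macrophage-like cells. Although the labels give male mice, Xist, the transcript of the inactive X chromosome of females, stood at 379 CPM among mast-like, 349 CPM among macrophage-like and 712 CPM among fibroblast-like cells, beside Y-linked Ddx3y at 18.5, 55.5 and 31.0 CPM. The matrix also counted 3 MULTI-seq tags (lipid-anchored oligonucleotides that mark the suspension a cell came from) named Cafum, Matrigel and Macrophages, and how these relate to the 2 mice is not given in the sources used here. The Cafum tag alone was called on 74.7% of mast-like cells, the Macrophages tag alone on 74.7% of macrophage-like cells and the Matrigel tag alone on 49.1% of fibroblast-like cells, so class and tagged suspension largely coincided. Several tags were called on 22.8% of macrophage-like, 23.0% of fibroblast-like and 3.65% of mast-like cells. The part of droplets with mixed cells in the mast cell RNA of the first 2 classes was not tested.

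Mast cells arise from blood progenitors under a small set of transcription factors. Gata2 and Gata1 are zinc finger factors that bind GATA motifs, and Gata2 is required for mast cell development. Mitf is a basic helix-loop-helix leucine zipper factor that activates mast cell genes such as those of proteases and Kit, and it also acts in pigment cells and osteoclasts. Tal1 and Lyl1 are related basic helix-loop-helix factors that bind DNA with E proteins, and Runx1 binds DNA with its partner Cbfb. Meis1 is a homeodomain factor that works with Hox and Pbx proteins, Satb1 organises chromatin and is best known in T cells, and Zfpm1 (also called Fog1) is a cofactor of GATA factors in red cell and platelet lineages.

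By GENCODE M21 on GRCm38, Gata2 (ENSMUSG00000015053) lies on chromosome 6 at 88193891–88207032 on the plus strand, Gata1 on chromosome X at 7959260–7978071 on the minus strand, and Mitf on chromosome 6 at 97807052–98021349 on the plus strand. Tal1 lies on chromosome 4 at 115056426–115071755 on the plus strand, Runx1 on chromosome 16 at 92601466–92826149 on the minus strand, and Meis1 on chromosome 11 at 18879817–19018985 on the minus strand. Satb1 lies on chromosome 17 at 51736187–51833290 on the minus strand, while Lyl1, at 84701457–84704715, and Zfpm1, at 122282141–122337251, both lie on the plus strand of chromosome 8. Lyl1 overlaps Nfix, Runx1 overlaps Gm26626 and Meis1 overlaps Gm16140 and Gm16141, each on the other strand, so their counts are uncertain to the extent that counting ignored strand, which is not given in the sources used here. The other 6 genes overlap no other gene of the matrix.

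RefSeq (GRCm38.p6) lists 18 transcription starts for the 9 genes. The 250 bases upstream are shown for both starts of Gata2, for Gata1 and for the first start of Tal1, whose levels outside mast cells followed those of mast cell markers, and for the third start of Mitf, whose levels did not. They are chr6:88193641-88193890 (plus) and chr6:88198414-88198663 (plus) for Gata2, chrX:7967911-7968160 (minus) for Gata1, chr4:115056176-115056425 (plus) for Tal1 and chr6:97991533-97991782 (plus) for Mitf. Each is printed 5′ to 3′ on the gene's strand, and capitals mark matches of the GATA motif, read on both strands, which is AGATAA where the first letter may also be T and the last may also be G.
Gata2, the first start: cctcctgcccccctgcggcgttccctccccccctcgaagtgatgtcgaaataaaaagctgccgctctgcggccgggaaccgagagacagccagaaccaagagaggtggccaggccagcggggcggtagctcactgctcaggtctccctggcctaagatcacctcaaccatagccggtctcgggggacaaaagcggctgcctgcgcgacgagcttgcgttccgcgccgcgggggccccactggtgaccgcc
Gata2, the second start: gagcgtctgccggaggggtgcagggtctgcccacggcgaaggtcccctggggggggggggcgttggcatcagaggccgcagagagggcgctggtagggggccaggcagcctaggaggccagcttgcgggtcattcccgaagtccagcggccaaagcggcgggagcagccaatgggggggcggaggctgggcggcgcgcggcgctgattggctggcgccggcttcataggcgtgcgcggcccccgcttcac
Gata1: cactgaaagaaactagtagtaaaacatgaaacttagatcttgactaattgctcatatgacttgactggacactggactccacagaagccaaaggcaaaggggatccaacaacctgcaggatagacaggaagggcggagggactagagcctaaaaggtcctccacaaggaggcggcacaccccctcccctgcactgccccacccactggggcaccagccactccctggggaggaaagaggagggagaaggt
Tal1, the first start: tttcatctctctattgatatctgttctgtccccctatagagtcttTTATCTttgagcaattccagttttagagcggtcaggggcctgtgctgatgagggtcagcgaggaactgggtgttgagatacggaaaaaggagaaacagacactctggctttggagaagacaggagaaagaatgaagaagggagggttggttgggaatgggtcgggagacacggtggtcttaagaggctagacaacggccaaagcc
Mitf, the third start: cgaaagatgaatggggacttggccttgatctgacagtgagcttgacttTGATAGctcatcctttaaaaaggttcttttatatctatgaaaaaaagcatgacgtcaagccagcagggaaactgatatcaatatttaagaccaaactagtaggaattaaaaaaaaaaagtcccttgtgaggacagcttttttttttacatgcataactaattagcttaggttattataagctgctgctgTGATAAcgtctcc
A GATA match lay upstream of 3 of the 18 starts, in 2 of the 9 genes, namely at the first start of Tal1, the second start of Mitf and the third. Among all 32851 RefSeq promoter windows of the same length, 26.5% held such a match. The general E-box CANNTG, the motif class bound by Tal1 and Lyl1, was found at 7 of the 18 starts against 66.2% of all windows. The RUNX letters TGTGGT were found at 2 of the 18, upstream of the first start of Mitf and the start of Meis1, against 14.0% of all windows. These matches describe letters in these windows and not bound sites.

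Gata2, Gata1 and Tal1 had their highest level in mast-like cells and their lowest in fibroblast-like cells. The Gata2 level was 647 CPM (95% Poisson interval 644–649.9) among mast-like, 225 CPM (219–231) among macrophage-like and 92.0 CPM (90.5–93.5) among fibroblast-like cells. For Gata1 the levels were 139, 41.1 and 19.3 CPM, and for Tal1 they were 179, 62.1 and 25.8 CPM in the same order. Runx1 and Satb1 had the same order of classes, at 1196, 1018 and 289 CPM for Runx1 and at 27.6, 16.2 and 6.31 CPM for Satb1. The order of classes for these 5 genes lay beyond counting error, which is small at such totals, and the share of all genes of which this holds was not computed.

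Mitf, Lyl1, Meis1 and Zfpm1 were not highest in mast-like cells. Mitf stood at 193 CPM (191–194) among mast-like cells, 232 CPM (226–238) among macrophage-like and 231 CPM (229–234) among fibroblast-like cells, and the last pair cannot be ordered. Lyl1 stood at 19.97 CPM (19.5–20.5), 24.6 CPM (22.7–26.7) and 3.37 CPM (3.09–3.66), so it was highest in the macrophage-like class. Meis1 and Zfpm1 were highest in fibroblast-like cells. Meis1 had 97.6 CPM among mast-like, 34.1 CPM among macrophage-like and 122 CPM among fibroblast-like cells, while Zfpm1 had 5.44 CPM (5.18–5.72), 2.00 CPM (1.48–2.65) and 9.88 CPM (9.41–10.4). UMIs count the 3′ ends of transcripts and are not divided by length, so levels are compared here between cells for 1 gene at a time.

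**Figure D1:**
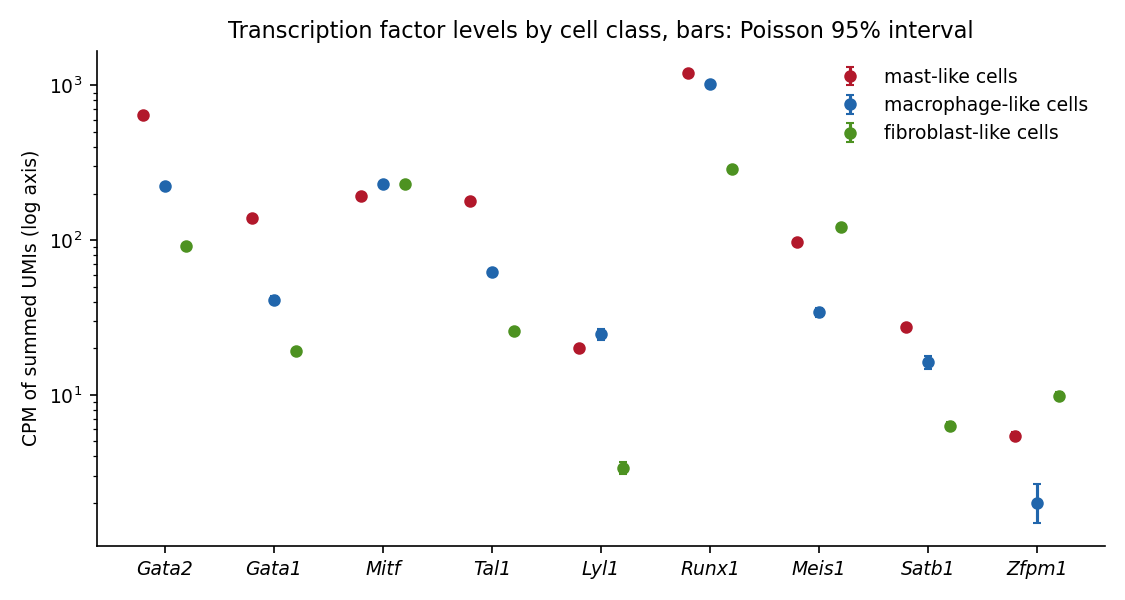
CPM of summed UMIs (log axis) of the 9 genes in the mast-like (21337 cells), macrophage-like (2470) and fibroblast-like (5146) classes, with exact Poisson 95% intervals as bars. Gata2, Gata1, Tal1, Runx1 and Satb1 are highest in mast-like cells, Lyl1 in macrophage-like cells, Meis1 and Zfpm1 in fibroblast-like cells, and Mitf in both other classes, which cannot be ordered for it.

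Within mast-like cells the genes ranged from nearly general to rare detection. After each cell was thinned to 5500 UMIs, which left 19891 mast-like cells, a Runx1 UMI was found in 98.0% of cells and a Gata2 UMI in 94.4%, against 99.4% and 98.8% without thinning. In thinned macrophage-like cells a Runx1 UMI was found in 95.1% and a Gata2 UMI in 41.8%, and in fibroblast-like cells in 65.3% and 30.3%. A Tal1 UMI was found in 62.5% of mast-like, 21.3% of macrophage-like and 12.4% of fibroblast-like cells, and a Gata1 UMI in 52.0%, 14.8% and 9.38%. Mitf differed from these in that its shares were near each other, at 60.02%, 61.2% and 58.7%. Meis1 was found in 32.7%, 12.7% and 39.9% of thinned cells of the 3 classes, and Satb1 in 15.6%, 5.57% and 2.80%. Lyl1 and Zfpm1 were sparse, in 10.8% and 2.71% of thinned mast-like cells. The median mast-like cell showed 4 of the 9 genes at this depth, 12 of 19891 cells showed none, and no cell showed all 9, which allows a share of up to 0.0151% (3 counts of the total).

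Cycling mast-like cells had lower CPM of most of the 9 genes than non-cycling cells, with Satb1 furthest below. By scores over 43 genes of S phase and 54 of G2/M, 1496 cells (7.52% of the thinned mast-like cells) were in S phase, 2790 (14.0%) in G2/M and 15605 were non-cycling, and 2145 cells lay within 0.05 of the score cut. Satb1 had 34.5 CPM (33.7–35.4) in non-cycling, 9.43 CPM (8.39–10.6) in S and 10.1 CPM (9.30–10.9) in G2/M cells. The share of thinned cells with a Satb1 UMI was 18.4%, 4.68% and 5.66% in the same order. A level counted as changed here when it differed 1.5-fold or more either way. In S phase 5 of the 9 genes were lower by that rule (Gata2, Mitf, Tal1, Runx1 and Satb1, or the 3 of Gata2, Mitf and Satb1 with called doublets kept) and none was higher, where 28.4% of all 9721 genes tested passed either way and 11% were lower. In G2/M 4 of the 9 were lower (Mitf, Lyl1, Runx1 and Satb1) and none was higher, where 24.5% of 9634 genes passed either way and 10.8% were lower. The median log2 ratio of the 9 genes was -0.61 in S and -0.55 in G2/M, beside medians of -0.003 and -0.009 over all genes tested.

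Among the GATA factors, Gata2 had 709.5 CPM (705.7–713) in non-cycling, 451 CPM (443–458) in S and 515 CPM (509.5–521) in G2/M cells. Its ratio to non-cycling cells was 0.635 (0.624–0.646) in S and 0.726 (0.717–0.735) in G2/M, so only the first passed 1.5-fold. Gata1 had ratios of 0.767 in S and 0.888 in G2/M and passed in neither. Their cofactor Zfpm1 was on the other side of 1, at 4.96 CPM in non-cycling, 7.13 CPM in S and 6.01 CPM in G2/M cells, with ratios of 1.44 (1.24–1.66) and 1.21 (1.07–1.37). Among the helix-loop-helix factors, Mitf stood at 218 CPM in non-cycling, 137 CPM in S and 133 CPM in G2/M cells, and so was lower by a similar amount in both phases. Tal1 had ratios of 0.656 and 0.685, on either side of the threshold, and Lyl1 had 0.711 and 0.572. Runx1 had 1353 CPM in non-cycling, 875.5 CPM in S and 835 CPM in G2/M cells. Meis1 was higher in cycling cells but under 1.5-fold, at 92.0, 107 and 115 CPM.

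Cycling cells held more RNA, with medians of 20216.5 UMIs in S and 19546.5 in G2/M cells against 10546 in non-cycling cells. Counted per cell, the mean number of Gata2 UMIs was 8.73 in non-cycling, 9.56 in S and 10.8 in G2/M cells, and Runx1 had 16.6, 18.6 and 17.5. Satb1 was the exception among the genes with 1.5-fold lower CPM in S phase, with 0.425 UMIs per non-cycling cell against 0.1999 and 0.211. Meis1 had 1.13 UMIs per non-cycling cell against 2.26 in S and 2.41 in G2/M. The lower CPM of Gata2 and Runx1 was therefore not a lower number of UMIs per cell, whereas that of Satb1 was.

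**Figure D2:**
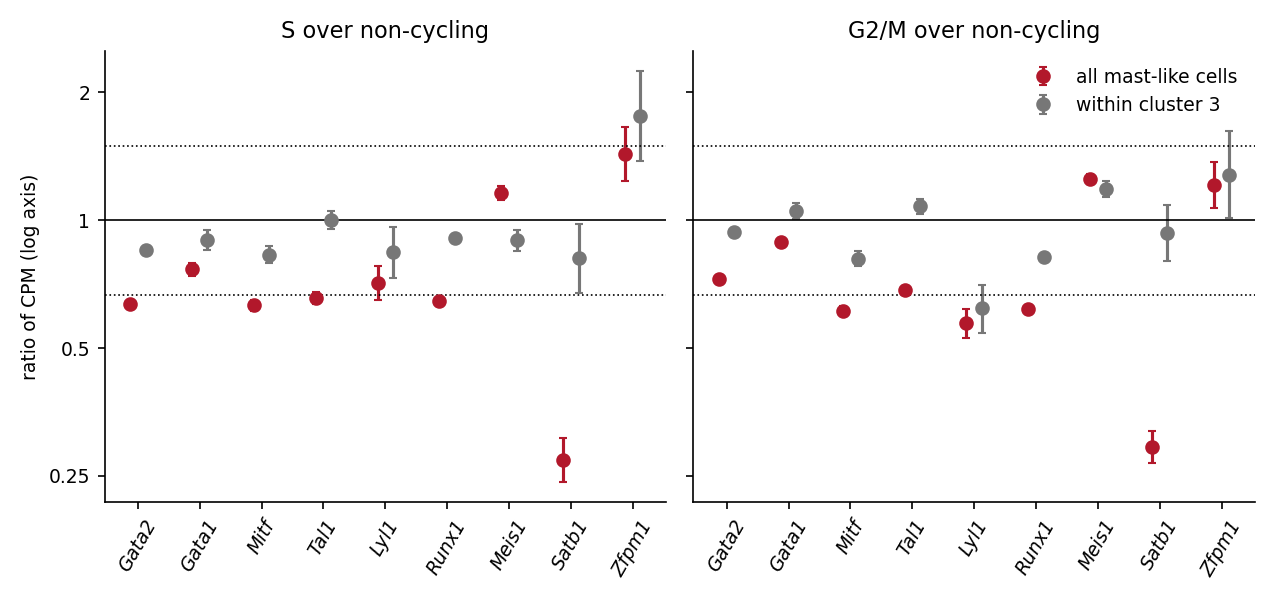
Ratio of CPM in S phase (left) and G2/M (right) to non-cycling cells on a log axis, for all mast-like cells (red) and within cluster 3 alone (grey), with 95% intervals as bars and dotted lines at 1.5-fold either way. Over all mast-like cells 5 genes lie under the lower line in S and 4 in G2/M, and Satb1 is lowest at 0.273 and 0.292, while within cluster 3 its ratios are 0.815 and 0.935.

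Cycle state and cluster overlapped. Clustering, which left out all 9 genes and the cycle genes, split the mast-like class in 5. Cluster 6 (1508 cells), led by histone genes, was 99.9% cycling, and cluster 3 (4762 cells), led by Ctsg, the gene of the granule protease cathepsin G, and by Ccnb2, was 50.5% cycling. Clusters 0 (led by Csrp3 and Slc6a13), 1 (Ifitm1 and Atp8a2) and 4 (Gm4847 and Mrgprb1) were between 2.29% and 3.25% cycling. Within cluster 3, where 2339 non-cycling cells could be set against 872 in S and 1517 in G2/M, 1 of the 9 genes passed 1.5-fold in each phase. These were Zfpm1, higher in S at a ratio of 1.76 (1.38–2.24), and Lyl1, lower in G2/M at 0.620 (0.544–0.705), beside 9.36% and 7.5% of all genes tested there. Meis1, higher over all mast-like cells, stood within cluster 3 at 0.897 (0.849–0.948) in S and 1.18 (1.13–1.24) in G2/M. Satb1 within cluster 3 had 10.7 CPM in non-cycling, 8.71 CPM in S and 9.99 CPM in G2/M cells.

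Non-cycling cells of cluster 3 already had the lower levels. Against the 13265 non-cycling cells of clusters 0, 1 and 4, Satb1 stood there at a ratio of 0.262 (0.237–0.289), Tal1 at 0.571 (0.554–0.588), Runx1 at 0.675, Mitf at 0.703 and Gata2 at 0.714. Lyl1 stood at 0.832, Gata1 at 0.777 and Zfpm1 at 0.734, whereas Meis1 was higher at 1.26 (1.22–1.31). Mast cell markers also differed between these cells, from 0.408 for Hdc to 1.15 for Mcpt4, and median depth was 15976 against 9955 UMIs. The few cycling cells of clusters 0, 1 and 4 (235 in S and 160 in G2/M) had Satb1 at 0.463 (0.364–0.582) of the non-cycling level in S and at 1.02 (0.827–1.24) in G2/M. Meis1 stood at 1.51 (1.38–1.65) in S there, while the other 7 genes had ratios between 0.787 and 1.34 in S.

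Across the 5 mast-like clusters, 4 of the 9 genes spread 2-fold or more between the highest and the lowest cluster, where 30.1% of all 10041 genes tested did. Satb1 spread most, with 44.6 CPM in cluster 4, 40.4 in cluster 0, 40.1 in cluster 1, 10.1 in cluster 3 and 7.35 in cluster 6, a ratio of 6.07. The 3 clusters with few cycling cells were thus close together and far above the other 2. Mitf had 295 CPM in cluster 4, 230.1 in cluster 1, 182 in cluster 0, 148 in cluster 3 and 125 in cluster 6, a ratio of 2.37. Runx1 followed the same order of clusters, from 1752 to 775 CPM, a ratio of 2.26. Meis1 had another order, with 126 CPM in cluster 4, 114 in cluster 3, 103 in cluster 6, 84.5 in cluster 1 and 58.5 in cluster 0. Cluster 4, led by the mast cell receptor gene Mrgprb1 among others, was highest for Mitf, Runx1, Meis1, Satb1, Tal1 and Lyl1, although for Lyl1 it was within counting error of cluster 0 (25.4 against 25.2 CPM). The spread was 1.63 for Gata2, 1.34 for Gata1, 1.84 for Tal1, 1.93 for Lyl1 and 1.502 for Zfpm1. At resolution 0.25, with at most 5% mitochondrial UMIs, with no filter on barcodes or with called doublets kept, 1 of the 9 genes passed 2-fold.

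**Figure D3:**
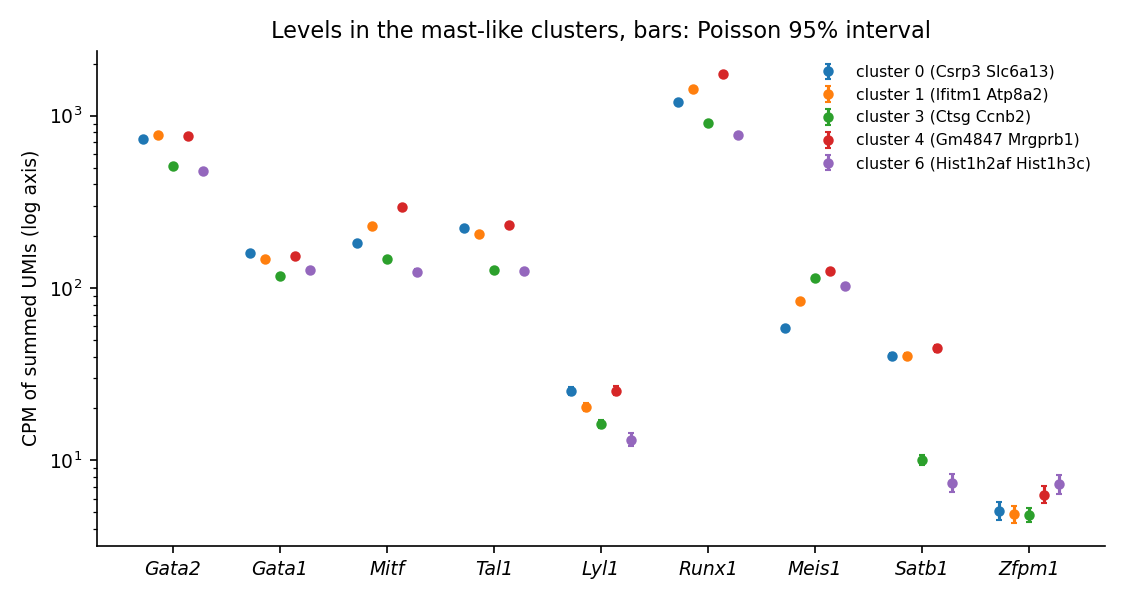
CPM of summed UMIs (log axis) of the 9 genes in the 5 mast-like clusters, each named with 2 of its leading genes, with exact Poisson 95% intervals as bars. Satb1 separates clusters 0, 1 and 4 (40.1 to 44.6 CPM) from clusters 3 and 6 (10.1 and 7.35 CPM), and cluster 4 is highest for Mitf and Runx1.

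In macrophage-like cells the 7 mast cell markers stood at 0.256 to 0.324 of their level in mast-like cells, and Gata1 lay inside that range while Gata2, Tal1 and Meis1 lay just above it. This range is an average over cells that differ widely in mast cell RNA. Gata1 had a ratio of 0.295 (0.277–0.315), Gata2 of 0.348 (0.339–0.358), Tal1 of 0.346 (0.329–0.364) and Meis1 of 0.349 (0.326–0.374). Zfpm1 stood at 0.368, with an interval of 0.271–0.489 that reaches into the range. Mitf at 1.202 (1.17–1.24), Lyl1 at 1.23 (1.13–1.34), Runx1 at 0.851 (0.841–0.863) and Satb1 at 0.588 (0.530–0.650) were well above it. Counted by value alone, 8 of the 9 genes were above the highest marker, where 96% of all 10545 genes tested were. Above 1.5 times the highest marker lay 4 of the 9 (Mitf, Lyl1, Runx1 and Satb1), where 86.3% of all genes did. Subtracting the highest marker ratio times the mast cell level leaves 169 CPM for Mitf, 630.1 CPM for Runx1, 18.1 CPM for Lyl1 and 15.3 CPM for Gata2. Mast cell genes outside the 7 markers, from the target list described below, stood on both sides of Gata2. Slc18a2 at 0.367, Csf2rb at 0.357, Bcl2 at 0.670 and Hpgds at 1.62 were above it. Il1rl1 at 0.337, Kit at 0.309 and Tph1 at 0.271 were below it. Slc18a2 was named for its high ratio, and whether macrophage-like cells make it was not tested. The remainder for Gata2 therefore does not place it above the background.

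In fibroblast-like cells the markers stood at 0.121 to 0.141, and Gata2 at 0.142 (0.1399–0.145), Gata1 at 0.138 (0.133–0.143) and Tal1 at 0.144 (0.139–0.148) had intervals that reach into that range. Zfpm1 at 1.82 (1.69–1.95), Meis1 at 1.248 (1.23–1.27) and Mitf at 1.1997 (1.18–1.22) were above their mast cell level altogether. Lyl1 stood between, at 0.169 (0.154–0.184), with Satb1 at 0.228 (0.214–0.244) and Runx1 at 0.242 (0.239–0.244). By value alone 8 of the 9 genes were above the highest marker, where 97.9% of all 11332 genes tested were. Above 1.5 times the highest marker lay 5 of the 9 (Mitf, Runx1, Meis1, Satb1 and Zfpm1), where 94.2% of all genes did.

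**Figure D4:**
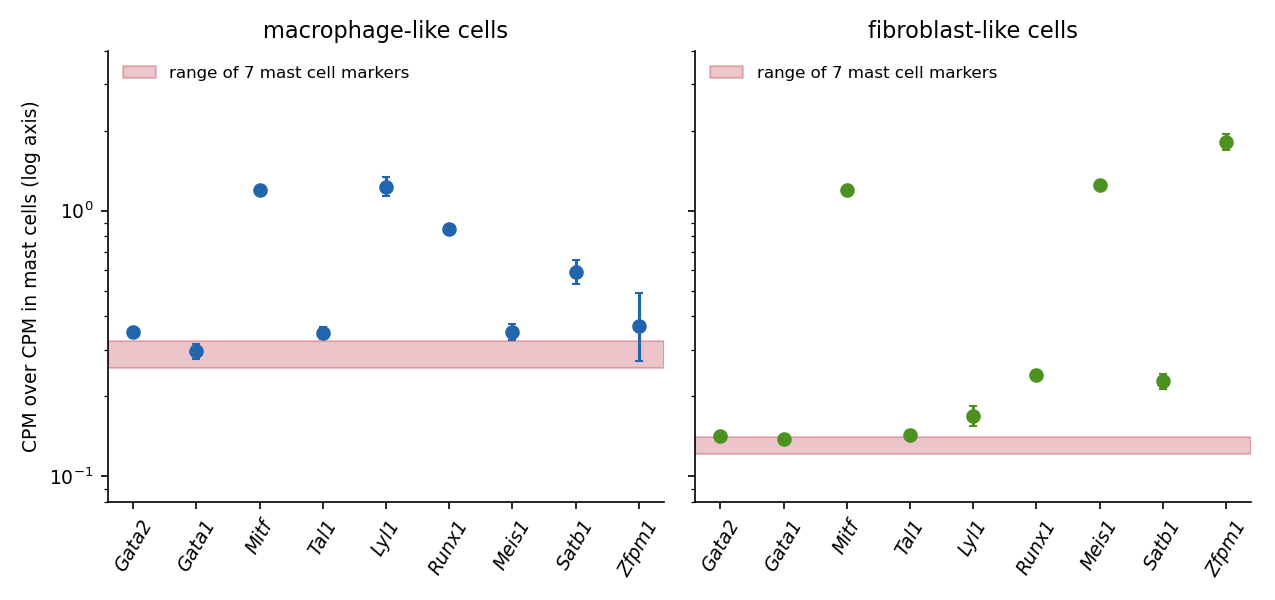
Ratio of CPM among macrophage-like (left) and fibroblast-like cells (right) to CPM among mast-like cells on a log axis, with 95% intervals as bars and the range of the 7 mast cell markers as a shaded band (0.256 to 0.324 and 0.121 to 0.141). Gata1 lies in the band in both classes, and Mitf lies near its mast-like level in both. Gata2 and Tal1 lie just above the band in macrophage-like cells and at its upper edge in fibroblast-like cells.

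To see whether a gene varied with mast cell RNA between cells of 1 class, macrophage-like and fibroblast-like cells were ranked by their share of UMIs from the proteases Cma1, Cpa3, Tpsb2 and Mcpt4 and split into 4 groups of equal size, a description chosen after the data were seen. The mast cell markers Fcer1a, Ms4a2 and Hdc were kept out of the ranking for comparison. In macrophage-like cells these 3 stood 14.4 to 27.3 times higher in the top than in the lowest group. Gata2 had 29.2, 36.6, 142 and 499 CPM from the lowest to the top group, a ratio of 17.1 (14.8–19.8). Tal1 had a ratio of 17.1 (13.0–23.0) and Gata1 of 26.4 (17.5–41.9), so all 3 genes lay within the span of the markers kept out of the ranking. Of all 10366 genes tested, 1.59% were at or above the lowest of those markers' ratios. In the lowest group Gata2 was at 0.0451 (0.0390–0.0520) and Tal1 at 0.0449 (0.0337–0.0588) of their mast cell level, beside 0.0267 to 0.0435 for the 3 markers.

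The other genes followed mast cell RNA less in macrophage-like cells, or not at all. Mitf had 262, 226, 197 and 228 CPM from the lowest to the top group, a ratio of 0.870 (0.816–0.927), and Lyl1 had 25.4, 23.1, 26.7 and 24.0 CPM with a ratio of 0.946 (0.770–1.16). Runx1 stood at 918 CPM in the lowest and 1187 CPM in the top group, a ratio of 1.29 (1.253–1.33). Meis1 lay between both patterns, with 10.9 CPM in the lowest and 63.5 CPM in the top group, a ratio of 5.80 (4.53–7.51). Satb1 had a ratio of 3.02 (2.30–4.03), and Zfpm1 one of 2.86 (1.29–7.18) from only 8 UMIs in the lowest group. In that group Meis1 stood at 0.112 (0.0877–0.141), Satb1 at 0.358 (0.276–0.457) and Zfpm1 at 0.224 (0.0963–0.442) of their mast-like levels. The markers kept out of the ranking stood there at 0.0267 to 0.0435. Median depth per group was 9404, 7380.5, 4978 and 13275.5 UMIs in the same order, so the top group was also the deepest.

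In fibroblast-like cells Fcer1a, Ms4a2 and Hdc stood 15.5 to 25.0 times higher in the top than in the lowest group. Tal1, with 3.77 and 68.2 CPM, had a ratio of 18.1 (15.6–21.1), Gata1 of 15.3 (13.0–18.2) and Gata2 of 12.2 (11.4–13.0), so Gata2 differed less between these groups than the markers did. In the lowest group Gata2 stood at 0.0292 (0.0274–0.0312) of its mast-like level, above the markers, while Gata1 at 0.0233 and Tal1 at 0.0210 lay among them. Among all 11019 genes tested 1.13% were at or above the lowest of those markers' ratios. Lyl1 followed with 0.937 and 7.63 CPM, a ratio of 8.15 (5.96–11.4). Mitf, at 201, 265, 234 and 231 CPM from the lowest to the top group, and Meis1, at 128, 129, 113 and 115 CPM, had ratios of 1.15 (1.12–1.18) and 0.897 (0.864–0.931). Zfpm1 went the other way, with 11.3 CPM in the lowest and 7.63 CPM in the top group, a ratio of 0.673 (0.585–0.773). Runx1 had 155 CPM in the lowest group, 0.129 of its mast cell level and well above the 0.0152 to 0.0237 of the markers, and 516 CPM in the top group. Satb1 had 2.73 and 12.9 CPM, a ratio of 4.73 (3.90–5.77).

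**Figure D5:**
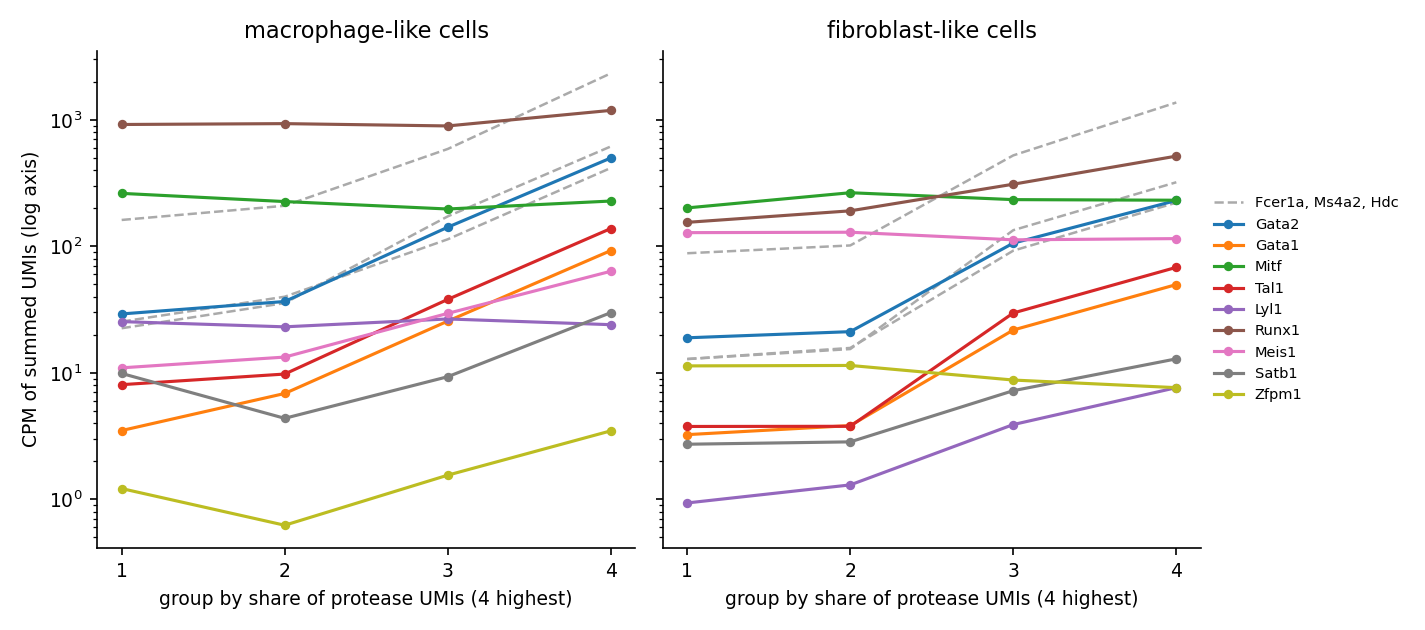
CPM of summed UMIs (log axis) of the 9 genes in macrophage-like (617 or 618 cells per group) and fibroblast-like cells (1286 or 1287 per group), ordered by each cell's share of UMIs from 4 mast cell proteases, with Fcer1a, Ms4a2 and Hdc as dashed lines. Gata2, Gata1 and Tal1 climb in both classes, but Gata2 climbs less than the dashed lines in fibroblast-like cells (12.2 against 15.5 to 25.0 times). Mitf has top-to-lowest ratios of 0.870 and 1.15, Lyl1 of 0.946 in macrophage-like cells, and Meis1 of 0.897 in fibroblast-like cells.

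Levels within a class also differed by suspension tag. Between the 2529 fibroblast-like cells with the Matrigel tag alone and the 315 with the Cafum tag alone, the tag of most mast-like cells, Cma1 stood at 1216 and 7540 CPM. Gata2 stood at 44.3 and 226 CPM, Gata1 at 8.52 and 49.1 CPM and Tal1 at 10.7 and 67.5 CPM in the same cells. Lyl1 stood at 1.85 and 8.20 CPM, Runx1 at 199 and 518 CPM and Satb1 at 3.62 and 13.5 CPM, so these were also higher with the Cafum tag. Mitf differed less, at 213 and 271 CPM, as did Meis1 at 123 and 106 CPM and Zfpm1 at 10.7 and 8.004 CPM. Within the Cafum tag alone, Gata2 stood at 624 CPM among mast-like against 226 CPM among fibroblast-like cells. In the 1845 macrophage-like cells with the Macrophages tag alone, Gata2 stood at 99.7 CPM, Gata1 at 18.3, Tal1 at 27.8, Meis1 at 19.0, Satb1 at 9.83 and Zfpm1 at 1.21 CPM, all under the level of the whole class. Runx1, at 949.5 CPM against 1018 CPM in the whole class, was also lower but by less. Mitf stood at 238 CPM and Lyl1 at 25.5 CPM. The tags were called with thresholds set after the data were seen, and cells with no tag or several tags are not in these values.

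Mitf and Meis1 varied within the fibroblast-like class. In its small cluster 8 (98 cells, led by Nalcn and Kctd16), Mitf stood at 1019 CPM (946–1096) and Meis1 at 311 CPM (272–355), against 228 and 121 CPM in the large cluster 2. Cluster 8 had a median of 5593 UMIs against 31320 in cluster 2 and 2.34% against 0.920% mitochondrial UMIs, none of the fibroblast markers was among its 10 leading genes, and the part of these differences in its levels was not tested. At a finer resolution the class divided into clusters led by Cdh6 and C7 (3475 cells), by Crabp1 and Dlk1 (969) and by Cfd and Adipoq (626), of which the last 2 no longer met the naming rule. Mitf stood at 284, 93.1 and 118 CPM in these 3, and Meis1 at 121, 132 and 39.3 CPM. The fibroblast-like levels are thus averages over unlike cells. Cycling fibroblast-like cells had a lower Mitf level than non-cycling ones, at a ratio of 0.477 (0.439–0.518) in 100 S phase cells and 0.478 (0.457–0.501) in 377 G2/M cells, while Meis1 stood at 1.04 and 0.943. Whether these cells came from clusters that differ in Mitf was not tested.

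Satb1 had its highest level in an unnamed cluster of 192 cells led by Igkc, Gzma and Cd3g, genes of B cells, cytotoxic cells and T cells, at 229.7 CPM (198–265). This cluster had a median of 2944 UMIs, and its Cma1 level of 14044 CPM shows how much mast cell RNA it held. At the finer resolution the level was 419 CPM (362–481) in 86 cells led by Ngp, Camp, S100a8 and Igkc. Those 86 cells carry neutrophil genes as leading genes, so the Satb1 level there is not that of lymphoid cells alone. A mast-like cluster of 2170 cells at that resolution had Satb1 among its leading genes, at 51.9 CPM.

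Cofactors of the 9 genes were spread over the classes. Of 18 listed cofactors 15 reached 5 CPM among mast-like cells, where the highest were Fli1, an ETS factor that works with Gata2 and Runx1, at 335 CPM, the chromatin remodeller Chd4 at 240.5 CPM, and Cbfa2t3, a corepressor found with Tal1, at 190.2 CPM. Cbfa2t3 stood at 0.127 of its mast cell level in fibroblast-like cells, inside the range of the markers, and Fli1 at 0.985 in macrophage-like but 0.148 in fibroblast-like cells. Lmo2, which bridges Tal1 and GATA factors, was lower in mast-like cells (16.9 CPM) than in macrophage-like (71.1 CPM) and fibroblast-like cells (49.6 CPM). The E proteins Tcf4, at 21.0, 378 and 380.1 CPM, and Tcf12, at 139, 224 and 266 CPM, had the same direction, but Tcf3, named after its values were seen, did not, at 16.9, 13.6 and 17.0 CPM. In the cycle comparison 2 of 15 cofactors passed 1.5-fold in S, 1 in each direction, and likewise in G2/M. Over all genes tested 28.4% passed either way in S and 24.5% in G2/M.

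Paralogs, the other members of the same gene families, gave 4 of 15 genes that were highest in mast-like cells. The share of all genes that were highest in each class was not computed, here and for the lists below. The 3 highest there were Meis2 at 430.4 CPM, Runx3 at 237 CPM and Gata3 at 19.5 CPM. In macrophage-like cells Meis2 (0.316) and Runx3 (0.327) stood at or next to the range of the markers, as did Gata3 (0.347). The Mitf relatives Tfec, at 0.149 CPM among mast-like and 43.0 CPM among macrophage-like cells, Tfeb, at 1.12 and 16.1 CPM, and Tfe3, at 12.9 and 35.3 CPM, were higher in macrophage-like cells. In S phase 1 of 7 paralogs tested was 1.5-fold lower, beside 11% lower over all genes tested. In G2/M none passed, beside 24.5% of all genes either way.

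Listed targets, genes of mast cells that GATA factors or Mitf are linked to, were highest in mast-like cells for 11 of the 12 found. They include 5 of the 7 markers that named the class, so this count is in part fixed by the naming. Hpgds, the synthase of prostaglandin D2, was the exception, with 115 CPM among mast-like and 186 CPM among macrophage-like cells. Cpa3 stood at 17935 CPM, Tpsb2 at 5882 CPM and Fcer1a at 3711 CPM among mast-like cells. The vesicular monoamine transporter Slc18a2 had 421 CPM there and the survival gene Bcl2 55.9 CPM. Of the 12 targets 4 were 1.5-fold lower in S phase and 7 in G2/M, with none higher, beside 11% and 10.8% lower over all genes tested. Cluster bears on these counts. Hdc and Tpsb2, lower by that rule in both phases, stood within cluster 3 at 0.767 and 0.913 in S and at 0.672 and 0.872 in G2/M. Non-cycling cells of cluster 3 already had them at 0.408 and 0.565 of the level in clusters 0, 1 and 4. The median log2 ratios of these targets were -0.35 and -0.63, beside -0.003 and -0.009 over all genes.

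A further list held myeloid factors, factors of other blood lineages and repressors, and 7 of its 15 genes were highest in mast-like cells. The inhibitor of helix-loop-helix factors Id2 had 1740.2 CPM there and Bhlhe40 202 CPM, while the Notch target Hes1, at 212 CPM, was higher among fibroblast-like cells, at 348 CPM. In S phase 2 of the 12 genes tested were 1.5-fold lower, Bhlhe40 at a ratio of 0.522 and Hes1 at 0.627, and 1 was higher, Gfi1b at 1.51, beside 11% lower and 17.3% higher over all genes. In G2/M 2 of 11 were lower, Bhlhe40 at 0.496 and Id2 at 0.645, and none was higher, beside 10.8% lower and 13.7% higher over all genes. Cebpa, a factor of granulocytes and macrophages, had 0.146 CPM among mast-like and 21.7 CPM among macrophage-like cells, Cebpb 35.7 and 741 CPM, and Id3 11.1 and 76.9 CPM. Macrophage factors were highest in macrophage-like cells for 7 of 8 genes. Spi1, which encodes the macrophage factor PU.1, had 71.2 CPM among mast-like and 168 CPM among macrophage-like cells. Maf, at 8.19 and 697 CPM, Klf4, at 5.19 and 992 CPM, Irf8, at 0.343 and 70.3 CPM, and Spic, at 0.142 and 49.3 CPM, had the same direction.

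GATA factors also act in red cell, platelet and basophil lineages, whose markers were looked for. Of the 8 red cell markers the haemoglobin genes were found in macrophage-like cells, with Hbb-bs at 1112 CPM, Hba-a1 at 526 CPM, Hba-a2 at 426 CPM and Hbb-bt at 292 CPM, against 99.6, 36.1, 27.1 and 15.3 CPM among mast-like cells. Klf1, the red cell factor, was at 0.245 CPM among macrophage-like cells. Of the 6 platelet lineage markers only Itga2b reached 50 CPM among mast-like cells, at 135 CPM. Of the 3 basophil markers Cd200r3 stood at 476 CPM and Mcpt8, the basophil protease, at 11.5 CPM among mast-like cells. The part of such cells in the levels of the 9 genes was not tested.

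The genes with the most similar pattern over the 8 clusters of at least 100 cells were found by Pearson's r of log2(CPM + 1), given as a description because the clusters share 1 library and the background of mast cell RNA. For Gata2 they were Gpr174 (r = 0.998), Cyp11a1 (0.997) and Sord (0.996), and for Gata1 they were Basp1 (0.997), Mab21l1 (0.996) and the mast cell carboxypeptidase gene Cpa3 (0.995). Tal1 was closest to 1110028F11Rik (0.995), Cyp11a1 (0.994) and Gata3 (0.994), a listed paralog of Gata1 and Gata2. Cyp11a1 was thus shared with Gata2. Runx1 was closest to Ahr (0.993), Ubash3b (0.985) and Rasgrp4 (0.984), Lyl1 to Ccl2 (0.991), Mob1a (0.985) and Evi2a (0.982), and Satb1 to Rfxank (0.990), Gm31728 (0.987) and Cd47 (0.980). Mitf was closest to Ttc17 (0.966), Usp25 (0.960) and Phf21a (0.955), Meis1 to Alkbh8 (0.9497), Eif4enif1 (0.948) and Agk (0.941), and Zfpm1 to Ogfod1 (0.966), Nudt8 (0.964) and Sema5a (0.961). Over the 5 mast-like clusters alone the lists were other genes. They were Gm973, Tmem71 and Ezh1 for Gata2, Dusp1, Rfc2 and Gpr137b for Gata1, Cyld, Bmt2 and Rab27b for Mitf, and Ecm1, Pik3cd and Ndrg1 for Satb1. For Tal1 they were Fech, Gnpda2 and Pim1, for Lyl1 AU022793, Mosmo and Rab35, for Runx1 St6gal1, Manea and Mob3c, for Meis1 Hps3, Agfg1 and Slc38a10, and for Zfpm1 Cbx6, Rad17 and Dpy19l1. With 5 points many genes reach such values, which here lay between 0.982 and 1.000 for all 27 genes.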

How the data were processed

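RNA 3′ ends were counted in 1 droplet library (10x Chromium 3′ kit v3.1). The authors deposited raw UMI counts per gene and barcode, made with Cell Ranger 7.0.0 on mm10 per the submitters' processing notes, with no normalization. The tag library was not analysed here, and neither the counting of intronic reads nor the use of strand is given in the sources used here. Tag features, 21.9% of all UMIs, were kept out of gene totals.

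Barcodes were kept with at least 500 genes, 1000 UMIs and at most 10% mitochondrial UMIs. Scrublet in scanpy 1.11.5 called 4833 doublets, which were removed, and doublets below its threshold of 0.526 remain. Cells were clustered on 2000 variable genes, 30 principal components and 15 neighbours with Leiden (leidenalg 0.10.2) at resolution 0.5, leaving out 266 listed genes and mitochondrial and ribosomal protein genes. A cluster took the name of the marker list of which over 50% of the genes, and at least 3, stood at 50 CPM or more and 4 times their lowest cluster level, unless another list led its 10 leading genes, or unless its median depth was over 3 times below the library's with no marker of the name among them. Names are rebuilt here, which can make them differ from the study's. Phases came from scanpy scores on cells thinned to 5500 UMIs, leaving out 1446, 550 and 187 cells of the mast-, macrophage- and fibroblast-like classes, with a cut at 0, and the part of free RNA in these calls was not tested. CPM of summed UMIs carry exact Poisson 95% intervals, ratios exact conditional binomial ones and shares exact Clopper-Pearson ones. Genes were tested at 5 CPM or more in a compared group. A tag was called at 2 times its background, and Cafum at 1.4 times. Ratio calls were also simulated, but with another cut over the highest marker and with a single background ratio for all genes. That run does not check the cuts used here.

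The members and lists were chosen with earlier results of these data known. All 9 genes are named everywhere. Of each list, the 3 genes highest in mast-like cells and up to 3 with the highest ratio over the marker background in macrophage-like cells are named, and per member the 3 most similar patterns among genes with 10 CPM in a cluster. A few listed genes are not reported here by name. The 4 groups by protease share, the comparison by tag, the cluster 3 comparisons and the values of clusters 7 and 8 and of the finer clusters, with their leading genes, were chosen after values were seen. Alternatives changed the filters, doublets, resolution, scaling, summing, tags, cycle rule and thresholds.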

Additional observations from a re-analysis of the deposited data

How the results depend on the processing

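No paired analysis was possible because the data are 1 library, and for the same reason no replicate could be left out. Of 9 genes, 5 passed 1.5-fold in S phase and 4 in G2/M. At the lower fold threshold tried the numbers were 8 and 7, within cluster 3 alone 1 and 1, and with called doublets kept 3 in S. A lower fold passes more of all genes by construction, and the share of all genes at that fold is not given here. The spread between mast-like clusters, which 4 genes passed, was passed by 1 gene with at most 5% mitochondrial UMIs, with no filter on barcodes, with doublets kept, at resolution 0.25 and at 3-fold. The cause was not tested, except that a stricter fold passes fewer genes by construction. By value alone, 8 genes stood above the highest marker ratio in each class, where 96% and 97.9% of all genes did, and above 1.5 times its highest marker 4 (macrophage-like cells) and 5 (fibroblast-like cells). The other alternatives stayed within 1.5 times of these counts. With doublets kept no cluster met the macrophage name, so there is no macrophage value.

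Ratios near the highest marker changed side, with the cause not tested. In macrophage-like cells Meis1 stood at 0.987 of the highest marker ratio with at most 5% mitochondrial UMIs, and Gata1 at 1.01 with the mean of per-cell CPM. In fibroblast-like cells Gata1 stood at 1.00 with doublets kept and Gata2 at 0.995 at resolution 1. With the mean of per-cell CPM Gata2 stood at 0.997 and Tal1 at 0.979. Tal1 stood at 0.982 among cells with 1 tag and at 0.956 among cells with their class's tag. The Tal1 ratio of S to non-cycling cells was 1.00 within cluster 3. By class ratio, Gata1, Gata2 and Tal1 in fibroblast-like cells, and Gata1 and Meis1 in macrophage-like cells, are placed on neither side of the background. In the group with the lowest protease share, fibroblast-like cells had Gata2 at 0.0292 (0.0274–0.0312) of its mast-like level. Fcer1a, Ms4a2 and Hdc stood there at 0.0152 to 0.0237. Macrophage-like cells of the lowest group had Meis1 at 0.112 (0.0877–0.141), beside 0.0267 to 0.0435 for the same markers. Gata2 and Tal1 in macrophage-like cells had class ratios between those of other mast cell genes, under Slc18a2 (0.367) and above Il1rl1 (0.337). Slc18a2 was named for its high ratio. By class ratio Gata2 and Tal1 are not placed above the background there either. Zfpm1, with 49 UMIs in macrophage-like cells, cannot be told from the background by its class ratio. In the group with the lowest protease share, from only 8 UMIs, Zfpm1 stood at 0.224 (0.0963–0.442) of its mast-like level. Fcer1a, Ms4a2 and Hdc stood at 0.0267 to 0.0435 in that group.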
